A study of Mus musculus with 8 samples.

Results

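The genes described here are the enzymes that turn glucose into lactate, the carriers that move glucose and lactate across the cell membrane, and the hypoxia-inducible factor (Hif) subunits with a panel of their targets. They were taken by name from the deposited gene table, and all 37 listed genes were found among its 55416 identifiers. In 24 cases the gene belonged to glycolysis or transport, and in 13 to the Hif factors and targets. These 2 sets are treated apart. The libraries came from MB21, a mouse medulloblastoma line whose genotype is given as ptch mutant, kept unattached in DMEM/F12 with B27. Ptch1 encodes the receptor that holds Sonic hedgehog signalling off. In the treated group (DS38, 4 libraries) the cells had 10 uM DS-1-38, a derivative of benzarone, for 5 days. In the control group (DMSO, 4 libraries) they had the DMSO vehicle for the same 5 days. Both groups carry the ptch mutation and represent 1 cell line in culture, and the sources used here do not state if each of the 4 libraries per group had its own culture. The p-values therefore measure the spread between these libraries, which may be technical.

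Glycolysis breaks glucose down to pyruvate, and lactate dehydrogenase can reduce the pyruvate to lactate, which leaves the cell through monocarboxylate carriers. Hif1a is made continuously, but while oxygen is present the prolyl hydroxylases mark it for destruction. In hypoxia the protein accumulates, pairs with Arnt and binds short DNA elements near genes for glucose uptake, glycolysis, vessel growth and mitochondrial turnover. Tumours of the Sonic hedgehog class, and the cerebellar granule cell progenitors from which they arise, are known for high glycolysis with hexokinase 2 under the control of the pathway. RNA levels do not report the Hif1a protein, which is regulated after translation, or the flux of glucose.

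Library totals ran from 17142397 to 28476019 counts, and the common biological coefficient of variation within groups was 5.53%. Values are CPM, counts scaled to a common library total, after TMM scaling, which corrects library totals for differences in composition. Genes were called by an adjusted p under 0.05 in edgeR's quasi-likelihood test, with Benjamini-Hochberg adjustment over the 15133 genes tested. By that rule 39.5% of all tested genes were called, 18.8% as higher in DS38 and 20.7% as lower, and their median log2 fold change was -0.01. Of the calls 47.5% were rises, and 64.3% if scaling used only library totals. Counts of called members below are to be read against this large background. The summed levels of marker lists that follow are CPM of plain library totals, without the TMM scaling used for single genes. The TMM factors were 0.975 to 0.984 in DMSO and 1.01 to 1.03 in DS38. Against the TMM scale the sums are therefore lower in DMSO and higher in DS38. The 10 granule lineage markers (Atoh1, Barhl1, Zic1, Zic2, Pax6, Neurod1, Mycn, Gli1, Gli2 and Sfrp1) all passed the filter, with a summed level of 2041 to 2077 CPM in DMSO and 2274 to 2359 CPM in DS38. In that list 5 rose, Atoh1 (from 284 to 432 CPM) and Barhl1 among them, and Gli1 (from 137 to 90.9 CPM) and Zic1 (from 624 to 557 CPM) fell. The 6 astrocyte markers summed to 117 to 121 CPM in DMSO and 114 to 116 CPM in DS38, nearly all of it Slc1a3, which fell from 119 to 109 CPM, while Gfap rose from 1.83 to 3.07 CPM. For the 7 oligodendrocyte markers the ranges were 12.2 to 14.9 and 13.1 to 15.2 CPM, with Mag at 0. For the 7 microglia and macrophage markers they were 1.17 to 1.60 and 1.68 to 2.35 CPM, with Cx3cr1 at 0. For the 5 endothelial markers they were 0.860 to 2.54 and 2.27 to 2.57 CPM, with Cldn5 at 0. Of the 2 tested endothelial markers Tek rose from 0.318 to 0.747 CPM, with overlapping groups, and Cdh5 was not called. The 7 fibroblast and mural markers summed to 72.3 to 77.4 CPM in DMSO and 54.1 to 58.4 CPM in DS38, nearly all of it Pdgfra, which fell from 73.3 to 51.1 CPM. Of the other tested markers of this list, Col1a1 rose from 0.233 to 0.798 CPM, and Col3a1 and Lum were not called. The part of these lists in the results was not tested. Fewer cells of a type and less RNA per cell cannot be told apart in such bulk samples.

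The Hif complex recognises the core ACGTG. RefSeq gives 250 bases before a start site for 34 of the 37 genes (build GRCm38.p6), in 50 windows because some genes have several start sites. The windows below are shown for the genes with the widest changes in each set and for the Ldha and Ldhb pair, which moved in opposite directions. They are written 5' to 3' on the gene's strand and end at the base before the start site, with capitals marking ACGTG or its reverse complement CACGT and the E-box CACGTG, a palindrome that holds both. For Ldha and for Vegfa, 1 of 2 windows is shown.
Ldha, chr7:46845554-46845803, plus strand: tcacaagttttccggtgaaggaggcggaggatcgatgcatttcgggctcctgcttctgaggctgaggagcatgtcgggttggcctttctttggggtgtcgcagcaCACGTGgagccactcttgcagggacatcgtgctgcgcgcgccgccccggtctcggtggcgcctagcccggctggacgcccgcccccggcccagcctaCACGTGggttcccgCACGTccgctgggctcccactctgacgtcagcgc
Pgk1, chrX:106186850-106187099, plus strand: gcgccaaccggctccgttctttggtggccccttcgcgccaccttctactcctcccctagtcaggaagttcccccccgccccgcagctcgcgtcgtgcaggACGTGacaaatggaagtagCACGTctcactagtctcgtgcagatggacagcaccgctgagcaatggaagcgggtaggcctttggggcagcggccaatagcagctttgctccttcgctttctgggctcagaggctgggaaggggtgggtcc
Vegfa, chr17:46032378-46032627, minus strand: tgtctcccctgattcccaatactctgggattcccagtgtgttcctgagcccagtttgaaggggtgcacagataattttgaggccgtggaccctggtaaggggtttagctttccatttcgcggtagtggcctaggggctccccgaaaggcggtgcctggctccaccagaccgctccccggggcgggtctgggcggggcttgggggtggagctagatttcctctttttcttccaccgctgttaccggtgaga
Ero1l (Ero1a in RefSeq), chr14:45318573-45318822, minus strand: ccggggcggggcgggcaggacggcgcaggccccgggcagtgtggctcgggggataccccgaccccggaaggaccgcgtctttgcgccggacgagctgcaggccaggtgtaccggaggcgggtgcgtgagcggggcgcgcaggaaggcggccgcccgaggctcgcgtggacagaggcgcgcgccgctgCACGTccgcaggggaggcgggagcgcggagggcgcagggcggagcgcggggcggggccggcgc
Ldhb, chr6:142507958-142508207, minus strand: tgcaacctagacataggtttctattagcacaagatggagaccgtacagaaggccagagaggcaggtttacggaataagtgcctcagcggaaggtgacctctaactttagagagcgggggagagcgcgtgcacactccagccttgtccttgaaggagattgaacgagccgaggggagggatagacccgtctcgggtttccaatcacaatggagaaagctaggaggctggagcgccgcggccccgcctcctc
The Ldha window held 3 matches, of which both CACGTG matches are also E-boxes, the site of Myc-type factors. The Pgk1 window held 2 and the Ero1l window 1. The printed windows of Vegfa and Ldhb held none, which says only that these letters are not within those 250 bases, and the other Vegfa window held 1. Counting either strand, ACGTG was present in 23 of the 50 member windows (46%), against 16.6% of all 32851 RefSeq windows of this length. It was in 38.9% of the 36 windows of the glycolysis set and in 64.3% of the 14 windows of the Hif set. The member list was drawn up to include Hif targets, so these shares are not independent of that choice. Binding of Hif at these windows was not tested. The member windows were also richer in CG dinucleotides, which ACGTG contains, with a median of 14 against 6, and 54% of them held at least 14, against 29.4% of all windows. The part of base composition in the difference was not tested. CACGTG, which is contained in the ACGTG count, was in 12% of member windows and 6.02% of all windows. TGATGNAA, an element of the stress factor Atf4, was in 0 of the 50 and in 3.45% of all. By gene, at least 1 window held ACGTG in 11 of the 14 matched genes that fell, in 1 of the 3 that rose and in 8 of the 17 that were not called. Over all RefSeq genes with a window it was 4998 of 27025. The median number of CG dinucleotides was 19 in windows of genes that fell, 14 in those that rose and 13 in those not called. The part of CG content in these counts was not tested either, nor was a link between ACGTG and the calls.

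One DS38 library stood apart in these genes. DS38 replicate 4 was the lowest of the 4 DS38 libraries for 32 of the 36 tested members, against 27.9% of all genes tested, and the lowest of all 8 libraries for 29 of them, against 12.6% of all genes. The median log2 difference from the DMSO mean over the glycolysis set was -0.14, -0.20, -0.13 and -0.43 in DS38 replicates 1 to 4, and over the Hif set it was -0.26, -0.27, -0.22 and -0.79. The median over all genes tested lay between -0.018 and 0.009 in each of the 8 libraries. DMSO replicate 4 held the highest medians of its group, 0.06 in the glycolysis set and 0.11 in the Hif set, and DMSO replicate 3 the lowest, -0.11 and -0.12. So both sets were low in every DS38 library, and furthest from the DMSO mean in replicate 4. Results are given from all 8 libraries, with the value without DS38 replicate 4 added where that library changed a call or moved a value widely.

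**Figure D1:**
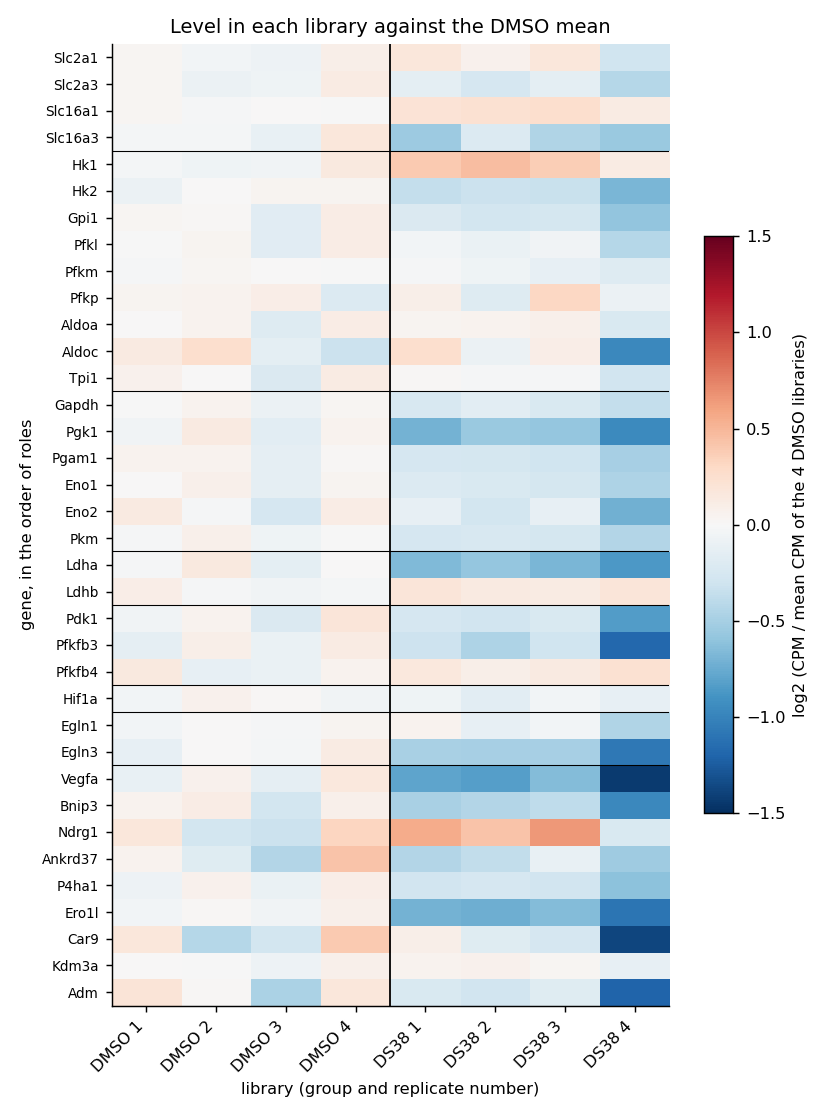
Log2 CPM of each member in each library, relative to the gene's mean over the 4 DMSO libraries (columns, DMSO replicates 1 to 4 then DS38 replicates 1 to 4; colour, log2 difference, from -1.5 in blue to 1.5 in red). Most rows are blue in the 4 DS38 columns, and the last column, DS38 replicate 4, is the deepest, with medians of -0.43 in the glycolysis set and -0.79 in the Hif set.

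Of the 24 glycolysis and transport genes, all tested, 10 fell, 3 rose and 11 were not called, with a median log2 fold change of -0.24. The share called was 54.2%, beside 39.5% of all genes. In 12 of the 24 every DS38 library lay below every DMSO library, a pattern found in 18.8% of all genes, and in 2 every DS38 library lay above (17.3% of all genes). Without DS38 replicate 4 the set counted 12 falls and 3 rises with a median of -0.18. With both libraries numbered 4 left out it counted 11 falls and 4 rises. The counts differed along the pathway, a difference that was not tested. Among the 9 genes from hexokinase to triose phosphate isomerase, 2 fell and 1 rose, whereas 5 of the 6 genes from Gapdh to pyruvate kinase fell and none of the 6 rose. Added up, the set took 1.31% ± 0.0809 (SD, n = 4) of all counts in DMSO and 1.09% ± 0.0860 (n = 4) in DS38, where replicate 4 had 0.958% and the others 1.11% to 1.15%.

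The glucose carriers differed between members. Slc2a1 (Glut1), the widespread glucose carrier and a classical Hif target, was at 38.95, 37.03, 36.31 and 40.42 CPM in DMSO replicates 1 to 4 and at 43.1, 39.8, 42.8 and 31.0 CPM in DS38 replicates 1 to 4. The groups overlapped, with DS38 replicate 4 below every DMSO library, and the gene was not called (log2 fold change 0.04, SE 0.0901, adjusted p = 0.767). Without DS38 replicate 4 the value was 0.14 (adjusted p = 0.0581). Slc2a3 (Glut3), the high-affinity carrier of neurons, was at 41.3, 38.3, 38.7 and 44.0 CPM in DMSO and at 36.6, 34.1, 36.7 and 30.2 CPM in DS38. All 4 DS38 values were below the DMSO values, and it fell by 0.24 on the log2 scale (SE 0.0637, adjusted p = 0.00632). With both libraries numbered 4 left out, a setting added after the data were seen, Slc2a3 stood at -0.14 (adjusted p = 0.0549) and Slc2a1 at 0.16 (adjusted p = 0.0340).

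The lactate carriers went in opposite directions. Slc16a1 (Mct1), which carries lactate and pyruvate either way, rose from 99.1 ± 1.39 CPM (SD, n = 4) to 114 ± 4.31 CPM (n = 4), with a log2 fold change of 0.20 (adjusted p = 0.000599), and its lowest DS38 library, at 108 CPM, was above its highest DMSO library, at 101 CPM. Slc16a3 (Mct4), the lactate exporter of highly glycolytic cells and a Hif target, was at 7.943, 7.954, 7.502 and 9.135 CPM in DMSO and at 5.57, 7.05, 5.94 and 5.52 CPM in DS38. It fell by 0.42 on the log2 scale (SE 0.109, adjusted p = 0.00474) with no overlap between the groups.

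The 2 hexokinases, which trap glucose in the cell by phosphorylating it, also parted. Hk2, the isoform known to respond to hedgehog signalling and to Hif, was at 243, 259, 264 and 264 CPM in DMSO and at 200, 205, 205 and 160 CPM in DS38, a fall of 0.42 (log2, SE 0.0709, adjusted p = 0.000719). Hk1, the constitutive isoform of brain, was at 54.5, 53.3, 53.8 and 61.5 CPM in DMSO and at 73.2, 76.8, 72.1 and 60.9 CPM in DS38, and it rose (log2 fold change 0.35, SE 0.067, adjusted p = 0.000898). The Hk2 groups were separate, while for Hk1 DS38 replicate 4 lay just under DMSO replicate 4. Both calls held without DS38 replicate 4, with Hk1 at 0.42 and Hk2 at -0.33.

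The next steps gave 1 more fall. Gpi1, which turns glucose 6-phosphate into fructose 6-phosphate, had 639 ± 52.0 CPM in DMSO and 509 ± 56.7 CPM in DS38 (n = 4 and 4), a fall of 0.33 on the log2 scale (adjusted p = 0.0144) without overlap. Its call was lost with both libraries numbered 1 left out (adjusted p = 0.0658), and its value was -0.21 with both numbered 4 left out. The 3 subunits of phosphofructokinase, the main control point of the pathway, were not called: Pfkl at -0.15 (adjusted p = 0.236), Pfkm at -0.09 (adjusted p = 0.0958) and Pfkp at 0.03 (adjusted p = 0.905). Nor was Aldoa, the chief aldolase, which stood at 1189, 1232, 1043 and 1288 CPM in DMSO and at 1217, 1230, 1251 and 1015 CPM in DS38 (log2 fold change -0.01, SE 0.0766, adjusted p = 0.923). Here 3 DS38 libraries lay within the DMSO range and replicate 4 just under it. The neighbouring enzyme Tpi1, at 285 to 360 CPM in DMSO and 271 to 335 CPM in DS38, was likewise not called (log2 fold change -0.07, adjusted p = 0.556). Aldoc, the brain aldolase, was counted at only about 1 CPM and was not called (log2 fold change -0.11, adjusted p = 0.78). Without DS38 replicate 4 the uncalled genes of these steps were nearer to 0 or above it, with Pfkl and Pfkm at -0.06, Tpi1 at -0.0011, Pfkp and Aldoa at 0.06 and Aldoc at 0.08.

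Lower glycolysis fell almost throughout. Pgk1 (ENSMUSG00000062070), the first enzyme of the pathway to make ATP, was at 1303, 1484, 1203 and 1399 CPM in DMSO and at 823, 915, 903 and 696 CPM in DS38. The highest DS38 library was thus far under the lowest DMSO library, and the mean was 1.61-fold lower (log2 fold change -0.69, SE 0.0965, adjusted p = 0.000542). Gapdh, the dehydrogenase before it and often a reference gene in expression assays, was at 2747, 2855, 2583 and 2815 CPM in DMSO and at 2331, 2474, 2347 and 2153 CPM in DS38. It fell by 0.24 (log2, SE 0.0495, adjusted p = 0.000806), again without overlap. Of the enzymes behind Pgk1, the mutase Pgam1 fell by 0.33 on the log2 scale (adjusted p = 0.000285) and the main enolase Eno1 by 0.29 (adjusted p = 0.000699). The pyruvate kinase Pkm, which makes the second ATP, had means of 2543 ± 105 CPM and 2072 ± 128 CPM and fell by 0.30 (log2, adjusted p = 0.000141). In these 3 genes too every DS38 library was below every DMSO library. The neuronal enolase Eno2, at 3.10 to 4.05 CPM in DMSO and 2.24 to 3.40 CPM in DS38, was not called (log2 fold change -0.29, adjusted p = 0.151). It stood at -0.18 and Eno1 at -0.23 without DS38 replicate 4. Pseudogene copies can exchange reads with some of these genes. Only copies that carry the parent gene's symbol were counted, and copies under other names were not searched. Relative to the parent gene's counts, the copies so named held 2.46% for Pgam1, 0.563% for Ldha, 0.367% for Pgk1, 0.104% for Aldoa and 0.0108% for Gapdh.

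Lactate dehydrogenase showed a fall of its main subunit and a rise of the other. Ldha (ENSMUSG00000063229), the subunit that favours making lactate, was at 1936, 2166, 1765 and 1963 CPM in DMSO and at 1235, 1305, 1220 and 1078 CPM in DS38. It fell 1.62-fold in the mean (log2 fold change -0.69, SE 0.0648, adjusted p = 1.18e-06). Ldhb (ENSMUSG00000030246), the subunit that favours the return of lactate to pyruvate, was at 79.3, 72.8, 71.1 and 72.1 CPM in DMSO and at 83.8, 80.9, 80.4 and 83.4 CPM in DS38. It rose by a small margin with no overlap (log2 fold change 0.15, SE 0.0436, adjusted p = 0.00948). The 4 DS38 libraries were close together in Ldhb, replicate 4 included, while the same library was the lowest in Ldha. Without it Ldha stood at -0.64 and Ldhb at 0.15.

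The 3 kinases that set the direction of flux were not called. Pfkfb3, whose product activates phosphofructokinase, was at 68.7, 80.5, 70.7 and 82.4 CPM in DMSO and at 61.0, 54.7, 61.7 and 33.4 CPM in DS38 (log2 fold change -0.52, SE 0.195, adjusted p = 0.0808). Pdk1, which keeps pyruvate out of the mitochondrial cycle, was at 148, 160, 133 and 174 CPM in DMSO and at 129, 126, 131 and 85.9 CPM in DS38 (log2 fold change -0.38, SE 0.155, adjusted p = 0.101). In both genes the groups did not overlap, and DS38 replicate 4 was far below the other 3. Without that library both were called as lower at smaller values, Pfkfb3 at -0.35 (adjusted p = 0.00131) and Pdk1 at -0.25 (adjusted p = 0.0324). Pfkfb4 was at 11.2 to 13.6 CPM in DMSO and 13.04 to 14.31 CPM in DS38 (log2 fold change 0.15, adjusted p = 0.150).

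**Figure D2:**
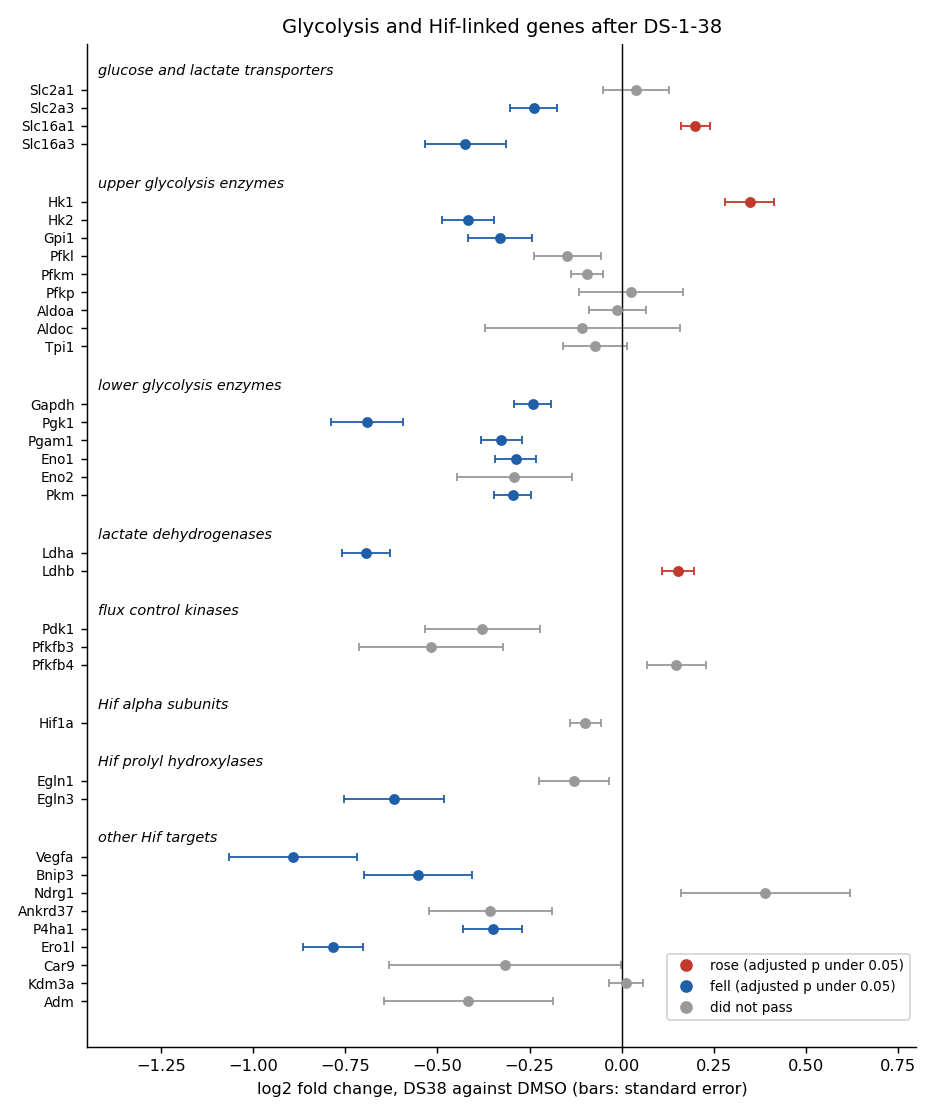
Log2 fold change of each tested member, DS38 over DMSO, with its standard error (points and bars; x axis, log2 fold change; colours mark rises, falls and genes not called by edgeR). The 5 called genes of lower glycolysis and Ldha lie left of 0, while Slc16a1, Hk1 and Ldhb are the called genes to the right.

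The split between sister genes was compared within libraries, as the log2 ratio of their counts, which cancels any change the sisters share. Of 12 pairs 11 were tested with a two-sided exact permutation test of 4 against 4 libraries, whose smallest possible p is 0.0286, adjusted over the 11. The log2 ratio of Ldha to Ldhb was 4.73 ± 0.132 (SD) for DMSO and 3.88 ± 0.135 for DS38 (exact permutation p = 0.0286), which is 1.80-fold lower. That of Hk1 to Hk2 went from -2.21 ± 0.0944 to -1.44 ± 0.0483 (exact permutation p = 0.0286), 1.70-fold higher. DS38 replicate 4 lay close to the other 3 DS38 libraries in the Hk1 to Hk2 ratio. It lay apart from them in Pfkfb3 to Pfkfb4 (1.22 against 2.07 to 2.20) and Slc2a1 to Slc2a3 (0.04 against 0.22 to 0.24), and was the lowest in Ldha to Ldhb (3.69 against 3.88 to 4.01). Slc16a1 to Slc16a3 (difference 0.64), Egln1 to Egln3 (0.50), Slc2a1 to Slc2a3 (0.27) and Pfkfb3 to Pfkfb4 (-0.71) also differed without overlap and reached the same smallest p. After adjustment these 6 pairs stood at 0.0524, so 0 of the 11 were called, and 6 were at an unadjusted p under 0.05. With 6 pairs at the smallest possible p, no lower adjusted value could be reached, however wide their separation. The lack of calls is therefore no measure of how far these 6 pairs differed. The other 5 had intervals that include 0. These ran from -0.35 to 0.23 for Pfkl over Pfkm, from -0.68 to 0.36 for Pfkl over Pfkp, from -0.62 to 0.23 for Pfkm over Pfkp, from -0.63 to 0.90 for Aldoa over Aldoc and from -0.27 to 0.38 for Eno1 over Eno2. These are 95% intervals of the difference in log2 ratio from the exact test.

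**Figure D3:**
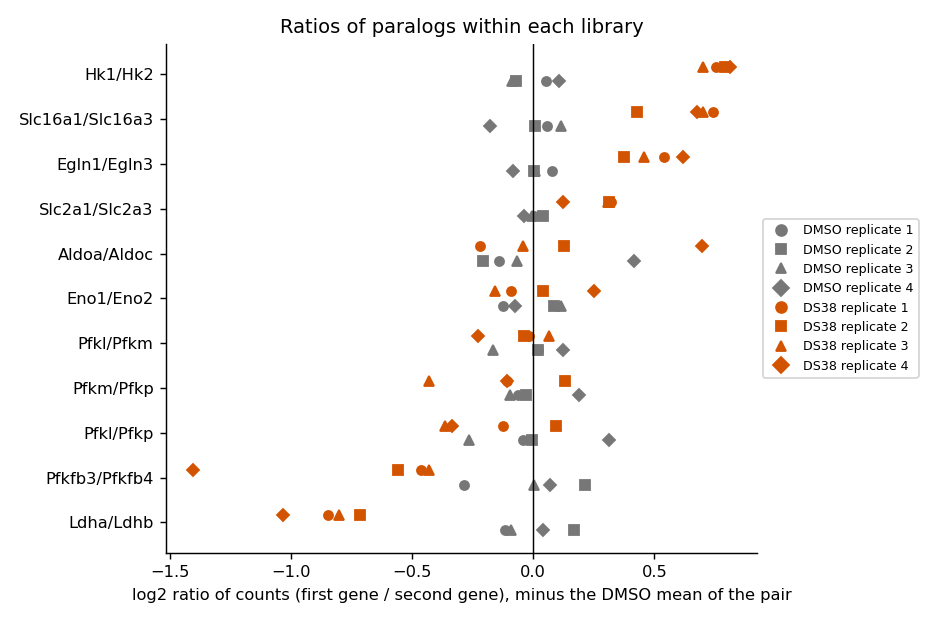
Log2 ratio of counts between sister genes in each library minus the mean of the pair in DMSO (x axis; grey, DMSO; orange, DS38; symbols mark the replicate number). The orange points of Ldha over Ldhb lie to the left of the grey ones, around a difference of -0.85, and those of Hk1 over Hk2 to the right, around 0.76.

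Levels were also compared between genes after division by gene length, as CPM per kilobase. In DMSO the order was Gapdh (665 ± 29.1), Pgk1 (600 ± 54.1), Ldha (591 ± 49.6), Pkm (509) and Aldoa (408), followed by Eno1 (219), Pgam1 (190), Tpi1 (120) and Gpi1 (99.0). Pgk1 and Ldha were within their spread of each other. In DS38 Gapdh was still first, at 563, but Pkm (414) and Aldoa (405) came before Pgk1 (372) and Ldha (365). Every gene of the Hif set lay below these enzymes, with Vegfa at 64.5 in DMSO and 34.7 in DS38 and Hif1a at 58.3 and 54.4 CPM per kilobase. Other genes of the glycolysis set were lower than both in DMSO, among them Hk2 (43.1) and Slc2a1 (10.9). At the bottom of the tested genes were Aldoc (0.313 in DMSO) and Pfkp (0.285 in DMSO).

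**Figure D4:**
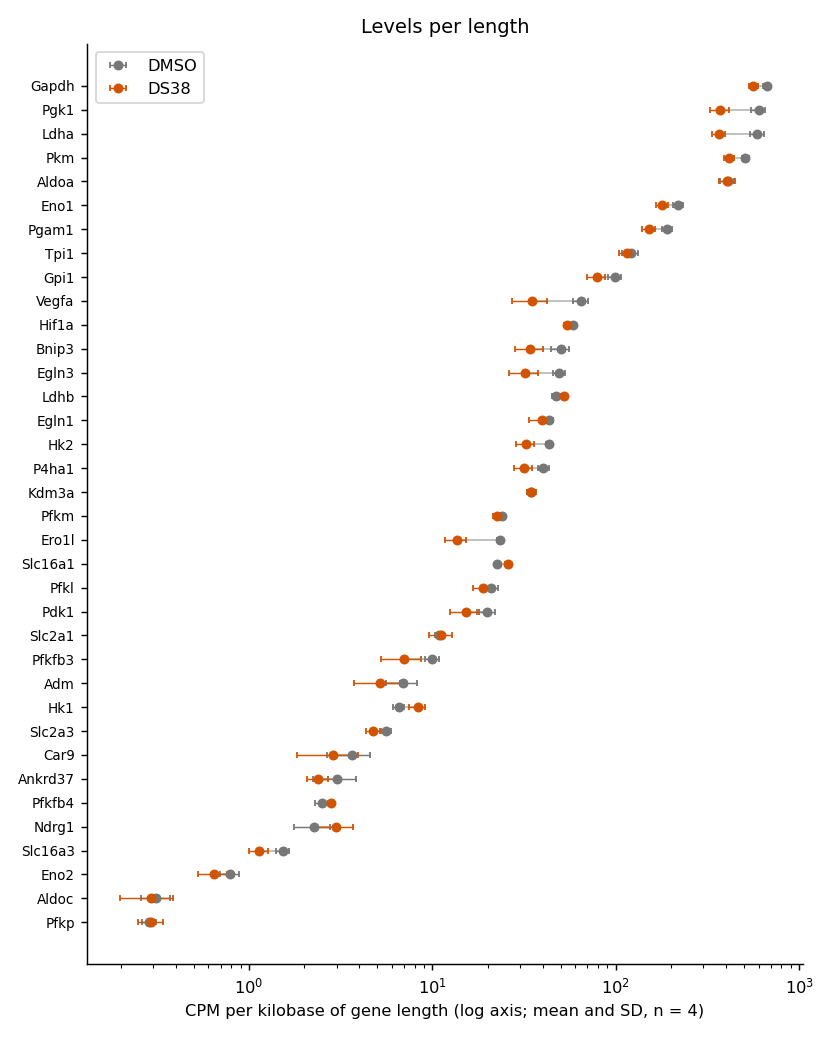
Level per kilobase of gene length for each member (points, mean of 4 libraries with SD; log axis in CPM per kilobase; DMSO and DS38 in separate colours). Gapdh leads in both groups, at 665 and 563, and Pgk1 and Ldha drop from 600 and 591 to 372 and 365.

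Of the 13 Hif factors and targets 12 were tested, of which 5 fell, 7 were not called and 0 rose by edgeR, with a median log2 fold change of -0.35. The share called, 41.7%, was near the 39.5% of all genes. No rise was found at an unadjusted p under 0.05 either, nor by DESeq2 or limma-voom. In 5 of the 12 every DS38 library was below every DMSO library, beside 18.8% of all genes. Without DS38 replicate 4 the median was -0.25, with 5 falls and 1 rise, and with both libraries numbered 4 left out it was -0.16, again with 5 falls and 1 rise. The set's counts made up 0.160% ± 0.00831 (SD, n = 4) of the DMSO libraries and 0.132% ± 0.0139 (n = 4) of the DS38 libraries.

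The factors themselves came first. Hif1a, the oxygen-regulated subunit, was at 333, 360, 349 and 332 CPM in DMSO and at 328, 307, 332 and 316 CPM in DS38. DS38 replicate 3 lay just above DMSO replicate 4, so the groups overlapped, and the gene was not called (log2 fold change -0.10, SE 0.0412, adjusted p = 0.0657), though it was called as lower without DMSO replicate 4 (adjusted p = 0.0449), with both libraries numbered 1 left out (0.0491) and with offsets for gene length (-0.15, adjusted p = 0.00695). Epas1, which encodes Hif2a, the sister subunit of vessels and some tumours, stayed under the filter on low counts, with 0, 4, 0 and 1 counts in DMSO and 7, 16, 5 and 3 in DS38. Summed over the groups it had 5 counts against 31, a ratio of 6.21 with a 95% interval of 2.39 to 20.4 that covers counting error only. With no filter edgeR gave it a log2 fold change of 2.42 (adjusted p = 0.0025). The floor of 3 counts is 0.117 CPM in DMSO replicate 1 and 0.159 CPM in DMSO replicate 3, the 2 libraries with 0 counts. All of its levels were thus a minute share of those of Hif1a.

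The members include 2 prolyl hydroxylases that label Hif1a for destruction. Egln3, itself strongly hypoxia-inducible, was at 120, 131, 128 and 143 CPM in DMSO and at 92.9, 92.3, 92.3 and 62.1 CPM in DS38. It fell by 0.62 on the log2 scale (SE 0.136, adjusted p = 0.0108), and by 0.49 without DS38 replicate 4 (adjusted p = 2.33e-07). Egln1, the principal oxygen sensor, was at 151 to 160 CPM in DMSO and 113 to 161 CPM in DS38 and was not called (log2 fold change -0.13, adjusted p = 0.324). Its value was -0.03 without DS38 replicate 4, the library at 113 CPM. Egln2, of the same family, is not a member but is on the list of Hif partners and regulators. It fell from 36.9 CPM in DMSO to 32.6 CPM in DS38 (log2 fold change -0.18, adjusted p = 0.0182).

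Vegfa (ENSMUSG00000023951), the growth factor of blood vessels, had the lowest log2 fold change of all tested members. It was at 256, 288, 252 and 309 CPM in DMSO and at 160, 156, 177 and 103 CPM in DS38, a 1.86-fold lower mean (log2 fold change -0.89, SE 0.174, adjusted p = 0.00745). Even its highest DS38 library was well under its lowest DMSO library, and without DS38 replicate 4 the value was -0.75 (adjusted p = 2.39e-05). Next was Ero1l (ENSMUSG00000021831), the oxidase that forms disulfide bonds in the endoplasmic reticulum, at 120, 125, 119 and 130 CPM in DMSO and 75.5, 74.3, 78.9 and 57.9 CPM in DS38. Its mean was 1.72-fold lower (log2 fold change -0.78, SE 0.0815, adjusted p = 3.18e-05). P4ha1, a collagen prolyl hydroxylase, fell by 0.35 on the log2 scale (adjusted p = 0.00591), from 155 to 177 CPM in DMSO to 108 to 139 CPM in DS38. Bnip3, which directs mitochondria to autophagy, was at 117, 122, 93.8 and 120 CPM in DMSO and at 80.7, 83.3, 86.8 and 57.9 CPM in DS38, a fall of 0.55 (log2, SE 0.146, adjusted p = 0.0232). It stood at -0.44 without DS38 replicate 4 (adjusted p = 0.00274). This call was the least steady of the 5 under left-out libraries. Leaving out DMSO replicate 1 ended it (adjusted p = 0.0578), and so did leaving out DMSO replicate 2 (0.0614), DMSO replicate 4 (0.0572), DS38 replicate 1 (0.0552) or both libraries numbered 1 (0.117).

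The other targets were not called in the full comparison. Kdm3a, a histone demethylase, was nearly level, at 268 to 298 CPM in DMSO and 260 to 296 CPM in DS38 (log2 fold change 0.01, adjusted p = 0.869, and 0.06 without DS38 replicate 4). Adm, the vasodilator peptide adrenomedullin, was at 8.10 to 12.8 CPM in DMSO and 4.89 to 9.91 CPM in DS38 (log2 fold change -0.42, adjusted p = 0.192), and it stood at -0.24 without DS38 replicate 4. Car9, the carbonic anhydrase used as a hypoxia marker in tumours, was at 9.387, 6.215, 6.904 and 10.97 CPM in DMSO and 8.92, 7.36, 7.03 and 3.23 CPM in DS38 (log2 fold change -0.32, adjusted p = 0.476). DS38 replicate 4 was its lowest library, and without that library it stood at -0.10. Ankrd37 had a log2 fold change of -0.36 (adjusted p = 0.0989) and was called only without DMSO replicate 3 among the 8 libraries left out in turn (-0.47, adjusted p = 0.0348). Ndrg1, a stress-responsive gene often used as a hypoxia marker, went the other way, with 16.77, 12.39, 11.96 and 18.73 CPM in DMSO and 22.0, 20.1, 23.5 and 12.8 CPM in DS38. It was not called from all 8 libraries (log2 fold change 0.39, SE 0.229, adjusted p = 0.227), but its first 3 DS38 libraries were above all DMSO libraries. Without DS38 replicate 4 it rose, at 0.54 (adjusted p = 0.0269). The values thus differed between targets, a difference that was not tested. Of the 12 tested genes of the Hif set 10 had a negative value. Vegfa and Ero1l fell in every setting of libraries left out. Ndrg1, not called from all 8 libraries, had a positive value in each, and Kdm3a stayed near 0.

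**Figure D5:**
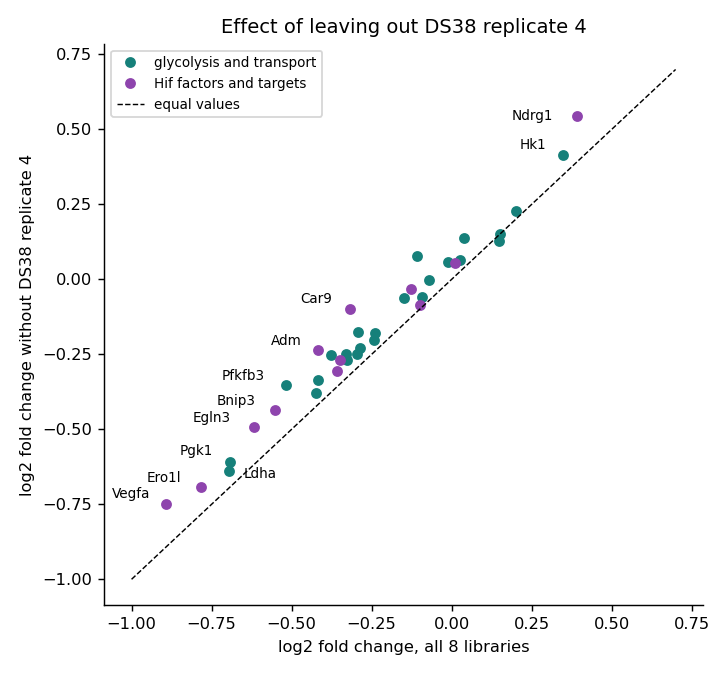
Log2 fold change of each tested member without DS38 replicate 4 (y axis) against that from all 8 libraries (x axis), with the line of equal values. Nearly all points lie above the line, so leaving this library out moved most values up: Vegfa from -0.89 to -0.75, Car9 from -0.32 to -0.10 and Ndrg1 from 0.39 to 0.54.

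Over both sets all 15 falls and 3 rises were kept without DS38 replicate 4, and Pdk1, Pfkfb3 and Ndrg1 were added. With both libraries numbered 4 left out, 14 of the 15 falls and all 3 rises were kept.

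Further genes of the same pathways were taken from 4 lists. Of the other genes of glucose handling 20 of 30 were tested, with 4 rises, 4 falls and a median of 0.01. The share called was 40%, near the 39.5% of all genes. Adpgk, a hexokinase-like enzyme that uses ADP, fell from 52.5 to 40.1 CPM in the mean (log2 fold change -0.39, adjusted p = 6.30e-06). Among enzymes that act on pyruvate dehydrogenase, its phosphatase Pdp1 fell from 39.7 to 31.0 CPM (-0.36, adjusted p = 3.31e-05) and its kinase Pdk2 rose from 23.7 to 29.6 CPM (0.33, adjusted p = 0.000884). The kinase Pdk3 was not called (0.01, adjusted p = 0.851). The muscle mutase Pgam2 was near the limit of detection, at 0.66 and 1.23 CPM (0.90, adjusted p = 0.0114). All 10 genes of the pentose phosphate pathway, which makes ribose and NADPH from glucose 6-phosphate, were tested. In this list 6 fell and 2 rose with a median of -0.17, a share called of 80% beside 39.5% of all genes. The falls included Prps1, from 180 to 143 CPM (-0.33, adjusted p = 2.30e-06), and Prps2, from 99.3 to 82.7 CPM (-0.26, adjusted p = 2.84e-05), which make the activated ribose for nucleotides, and Rpia, from 43.3 to 37.3 CPM (-0.22, adjusted p = 0.00129). Pgd, an oxidative enzyme that yields NADPH, rose from 63.9 to 81.8 CPM (0.35, adjusted p = 2.50e-06).

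Of the partners and regulators of Hif 9 of 10 were tested, with 4 rises and 3 falls. The share called was 77.8%, beside 39.5% of all genes. Arnt, the constant partner of Hif1a, averaged 69.7 ± 2.93 CPM in DMSO and 85.2 ± 2.34 CPM in DS38, a rise (0.29, adjusted p = 3.12e-05), and Arnt2, its neural form, rose from 10.6 to 14.6 CPM (0.46, adjusted p = 0.000498). Os9, a lectin of endoplasmic reticulum quality control that was also described as a Hif1a binder, rose from 46.8 to 57.9 CPM (0.31, adjusted p = 2.68e-05), and the ubiquitin ligase Siah2, which acts on the prolyl hydroxylases, fell from 23.5 to 17.9 CPM (-0.40, adjusted p = 0.0001). Of the other hypoxia-inducible genes 26 of 30 were tested, with 4 rises, 9 falls and a median of -0.07. Here 50% were called, beside 39.5% of all genes. Stc2, a secreted glycoprotein, fell the furthest of those named, with 35.2 ± 2.43 CPM in DMSO and 12.2 ± 0.845 CPM in DS38 (-1.52, adjusted p = 7.16e-12). Pgf, a relative of Vegfa, fell from 31.7 to 19.7 CPM (-0.69, adjusted p = 1.07e-07). The transferrin receptor Tfrc rose from 123 to 177 CPM (0.52, adjusted p = 4.96e-08) and Wsb1 from 61.3 to 78.2 CPM (0.35, adjusted p = 1.42e-05). In this list DS38 replicate 4 was again the lowest DS38 library for 23 of the 26 tested genes and the lowest of all 8 for 20. Over all genes tested the shares were 27.9% and 12.6%.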

How the data were processed

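Messenger RNA was sequenced from 8 libraries (4 DMSO, 4 DS38). The authors deposited unnormalized counts of reads for every gene, as whole numbers, with gene lengths. Per the submitters' processing notes, STAR 2.7.9a, featureCounts of Subread 2.0.3, R 4.1.0 and edgeR were used, with builds GRCm39 and GRCh38.p13. The role of the human build, the strand setting and the treatment of reads with several matches were not given in the sources used here, so genes with near-identical, overlapping or antisense copies are uncertain. Symbols (52083 of the identifiers) came from an annotation of an earlier mouse build, and 24484 identifiers had no count. Promoter windows are from RefSeq (GRCm38.p6), with the coordinates of that build.

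Members and lists were chosen with earlier results of these data known. All 37 members are named, and from each further pathway list the up to 4 called genes with the smallest p. Pdk3 and Egln2 are named besides. Promoters were chosen as the members with the largest change in each set plus Ldha and Ldhb. The test was that of edgeR 4.0.16, run in R 4.3.3 (TMM, robust quasi-likelihood fit, filterByExpr minimum of 10 counts, Benjamini-Hochberg adjustment), DS38 against DMSO over all genes. Standard errors are the log2 fold change over the square root of F. Ratios of sister genes used counts with a prior of 0.5 counts. Alternatives used DESeq2 1.42.0, limma 3.58.1, other scalings, filters, length offsets, a replicate block and left-out libraries. Leaving out both libraries numbered 4 was added after the data were seen. The scripts were tested on simulated data. The interval and floors of Epas1 cover counting error only, because PCR copies of a molecule cannot be recognised here, while the intervals of the ratios reflect the spread between libraries.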

Additional observations from a re-analysis of the deposited data

Results flagged for a closer look

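In 74 groups of 4 libraries (37 genes in DMSO and in DS38) a single library was set apart from the other 3 by the gap criterion of Dixon in 10 groups, where chance gives about 1 in 20. The 74 groups are not independent, because all genes were measured in the same libraries. A single odd library can therefore be flagged in many genes at once. In 8 of the 10 the library was DS38 replicate 4, lower than its group in each. For Hk2 it had 160 CPM against 200 to 205 in the others, for Egln3 62.1 against 92.3 to 92.9, for Pdk1 85.9 against 126 to 131, and for P4ha1 108 against 136 to 139 CPM. Aldoa was at 1015 CPM there against 1217 to 1251, Tpi1 at 271 against 327 to 335, Pkm at 1881 against 2124 to 2156, and Adm at 4.89 against 9.22 to 9.91 CPM. The other 2 were in DMSO. Hk1 was at 61.5 CPM in DMSO replicate 4 against 53.3 to 54.5, and Bnip3 at 93.8 CPM in DMSO replicate 3 against 117 to 122. What sets these libraries apart was not tested.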

How the results depend on the processing

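Each member was refitted in 20 other settings. Of 719 combinations of member and setting, 665 kept direction and side of the threshold, 11 lost a call, 22 gained a call and 21 changed sign. Of the 18 called members 13 kept call and direction throughout, and 9 of the 18 others were called in at least 1 setting. The cause of these changes was not tested. The Hif set had 1 rise in place of 0 with no filter, without DS38 replicate 4 and with both libraries numbered 4 left out, and 3 falls in place of 5 with length offsets and the replicate block, where Egln3 (adjusted p = 0.0781), Vegfa (0.0529) and Bnip3 (0.0818) lost their calls. Bnip3 also lost it with no filter (0.0559). Pdk1 and Pfkfb3 were called as lower by DESeq2 (adjusted p = 0.0492 and 0.0423), by limma-voom (0.0132 and 0.0064) and without the robust option (0.0121 and 0.0063).

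All sign changes were in genes or ratios that were not called. Aldoa was positive with library totals (0.049), with a filter of 50 counts in 4 libraries (0.0039) and without both libraries numbered 4 (0.093). Pfkp was negative with length offsets (-0.087) and these with the block (-0.088), as was Kdm3a (-0.058 in both, and -0.0028 without both numbered 1). Slc2a1 was at -0.00028 without both numbered 1, and Tpi1 was at 0.036 and Car9 at 0.046 without both numbered 4. The ratio of Eno1 to Eno2 was -0.0061 with a prior of 5 counts and -0.094 without both numbered 4, where Pfkl to Pfkm was 0.044. With each library left out in turn the values ran from -0.0085 to 0.14 for Slc2a1, from -0.058 to 0.11 for Pfkp, from -0.071 to 0.057 for Aldoa, from -0.25 to 0.079 for Aldoc and from -0.015 to 0.056 for Kdm3a. For the ratios they ran from -0.11 to 0.0026 for Pfkl to Pfkm, from -0.045 to 0.28 for Aldoa to Aldoc and from -0.069 to 0.067 for Eno1 to Eno2. With 1 library left out the smallest p of the exact permutation test of a ratio is 0.0571.

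Replicate numbers are shared by the groups. Deviations of same-numbered libraries correlated at 0.33, -0.07, 0.07 and -0.08, and 3 of 8 libraries correlated best with their own number. These values cannot settle if same-numbered libraries were paired, and the main test took no account of the number. With the replicate block 2546 genes rose and 3048 fell, the glycolysis set had 3 rises and 10 falls and the Hif set 0 rises and 5 falls, as without the block, and the further pathway genes had 13 rises and 18 falls. Depth limits the genes with few counts, among them Epas1 with 5 counts in DMSO and 31 in DS38.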
